A study of Mus musculus with 18 samples.

Results

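The epidermal differentiation complex is a cluster of genes on mouse chromosome 3 that build the cornified layer of stratified squamous epithelium. As keratinocytes leave the basal layer they express envelope precursors, such as the late cornified envelope (LCE) proteins, which transglutaminases cross-link under the plasma membrane into a tough cornified envelope. The S100-fused-type proteins of the same cluster, filaggrin among them, bundle keratin filaments or join the envelope, and small calcium-binding S100 proteins lie at its edges. The rodent forestomach, like the rodent esophagus, is lined by keratinized squamous epithelium, so these genes report on terminal differentiation of the tissue in which nitrosamine tumors arise.

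The members were taken by position alone. They are the entries with a reference gene whose first listed gene starts between 90.5 and 93.6 megabases of chromosome 3 (build mm10/GRCm38), without S100a8, S100a9, 2310046K23Rik and the Sprr genes. The interval holds 82 such entries, 16 were left out by name, and 66 members remained of 28934 entries with a reference gene. Of these, 36 reached 0.5 FPKM (fragments scaled to gene length and to the mapped fragments of the library) in a minimum of 3 libraries and were tested. The other 30 are mostly predicted genes and pseudogenes, 4 of them were at 0 in every library, and their highest single value was 0.929 FPKM. By role, the 36 comprise 8 S100 entries, 12 LCE entries, 6 S100-fused-type entries, 3 entries of other envelope or keratinocyte proteins, and 7 further genes of the interval. Of the 5 marker genes of cornifying epithelium, Flg (filaggrin) and Crnn (cornulin) were measured, and Lor, Ivl and Rptn were not analysed here.

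RNA was sequenced from the forestomach of male C57BL/6 mice in 4 groups. The 6 CCR2-/- NMBA and 6 WT NMBA libraries came from mice given N-nitrosomethylbenzylamine, an esophageal carcinogen, by gavage at 0.25 mg/kg, and the 3 CCR2-/- control and 3 WT control libraries from mice given the vehicle, 1% carboxymethyl cellulose. Mice were gavaged 2 times per week over 5 weeks, and the forestomach was collected when week 25 ended. CCR2-/- mice lack the chemokine receptor CCR2, through which CCL2 recruits monocytes, in all cells. The labels give the cell type of every library, controls included, as esophageal cancer, the paper speaks of tumors, and how much tumor each NMBA library held is unknown. Ccr2 itself was at 0 to 0.0798 FPKM in CCR2-/- NMBA, 1.30 to 3.43 FPKM in WT NMBA, 0 to 0.0546 FPKM in CCR2-/- control and 1.83 to 2.37 FPKM in WT control libraries, as the labels require. Code letters in the labels differ between NMBA replicates 1 to 3 and replicates 4 to 6, and each letter belongs to 1 group, so between groups the letter and the group cannot be told apart. Glandular stomach genes varied strongly: the summed FPKM of 9 of 11 listed genes, all past the filter, was 5577 to 63881 in CCR2-/- NMBA and 8513 to 46351 in WT NMBA, against 25927, 42390 and 29229 in CCR2-/- control and 4437, 7579 and 49787 in WT control libraries. Of their pepsinogen gene Pgc, CCR2-/- NMBA replicate 4 (40444 FPKM) and WT control replicate 3 (38093 FPKM) held the most.

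The LCE genes arose by duplication, and their entries lay on the same side of 0 in both comparisons between genotypes. Whether promoter sequence has a part in that was not tested. The start-site sequences of some members are given first. They are RefSeq sequences of GRCm38.p6, which lists a promoter of 250 bases before to 50 bases after the start for 29 of the 41 gene symbols in the 36 tested entries. Each is written 5′ to 3′ on the gene's own strand and ends at or near the start of the transcript. Capitals mark the letters of a TATA box (TATAAA), of the related ATAAAAG, which overlaps it wherever a T precedes, and of the AP-1 motif (TGANTCA). For the LCE genes and Prr9, 60 bases are shown:
Lce1i, chr3:92778900-92778959, minus strand: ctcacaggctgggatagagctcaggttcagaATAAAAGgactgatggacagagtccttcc
Lce1d, chr3:92687211-92687270, minus strand: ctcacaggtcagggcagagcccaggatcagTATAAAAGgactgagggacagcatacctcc
Lce1m, chr3:93019062-93019121, minus strand: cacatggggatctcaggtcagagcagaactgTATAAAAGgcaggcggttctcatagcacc
Lce3e, chr3:92967001-92967060, plus strand: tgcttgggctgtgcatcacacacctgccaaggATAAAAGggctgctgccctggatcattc
Lce3f, chr3:92992157-92992216, plus strand: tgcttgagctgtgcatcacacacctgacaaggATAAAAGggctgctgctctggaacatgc
Lce3a, chr3:92926231-92926290, minus strand: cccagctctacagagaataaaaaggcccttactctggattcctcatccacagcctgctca
Prr9, chr3:92123948-92124007, minus strand: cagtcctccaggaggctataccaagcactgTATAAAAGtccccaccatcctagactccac
For the S100-fused-type genes, 110 bases are shown so that the AP-1 letters farther upstream are included:
Crnn, chr3:93144679-93144788, plus strand: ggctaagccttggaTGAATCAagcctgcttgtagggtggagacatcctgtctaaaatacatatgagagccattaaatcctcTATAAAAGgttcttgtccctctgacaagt
Flg2, chr3:93197163-93197272, plus strand: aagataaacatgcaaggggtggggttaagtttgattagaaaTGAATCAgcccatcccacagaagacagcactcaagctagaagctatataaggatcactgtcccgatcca
Flg, chr3:93273436-93273545, plus strand: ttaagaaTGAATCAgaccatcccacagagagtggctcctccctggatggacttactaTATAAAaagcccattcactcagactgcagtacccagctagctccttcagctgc
Tchhl1, chr3:93468644-93468753, plus strand: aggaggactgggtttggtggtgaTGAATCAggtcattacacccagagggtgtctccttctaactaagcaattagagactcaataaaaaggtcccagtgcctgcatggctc
Hrnr, chr3:93319639-93319748, plus strand: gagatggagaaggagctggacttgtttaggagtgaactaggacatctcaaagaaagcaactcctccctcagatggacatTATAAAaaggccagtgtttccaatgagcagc

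The letters occurred in different shares of the gene families. Searched on both strands of these windows, ATAAAAG was found in 11 of 15 LCE genes (73.3%) and in 1 of 6 S100-fused-type genes (16.7%), against 5.42% of all 32851 promoters. This motif was chosen after the sequences had been seen. TGANTCA was found in 4 of 6 S100-fused-type genes (66.7%) and in 0 of 15 LCE genes, against 7.81% of all promoters. TATAAA was found in 3 of 6 S100-fused-type genes (50%) and 4 of 15 LCE genes (26.7%), against 13.6% of all promoters. The grainyhead-like letters AACNGGTT were in none of the 29 promoters and in 2.09% of all. Over the 250 bases before the start, aligned end to end, the Lce1 promoters shared 41.6 to 85.6% of bases with one another (median 56.6% over 55 pairs). The Lce3 promoters shared 52 to 58.1% over 3 pairs, and an Lce1 with an Lce3 promoter 39.1 to 49%. The Lce6a promoter shared 37.5 to 47.1% with the Lce1 promoters. No baseline from unrelated promoters was taken, so the lower values need not mean shared sequence. A letter match describes the window and does not mark a bound site.

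LCE genes held most of the summed FPKM of the members in every group. Ordered by mean FPKM over the 18 libraries, a scale per gene length, the LCE entries ran from 39.2 for the joined entry of 2210017I01Rik and Lce6a to 1080 for Lce1a1, with a median of 362. The other envelope and keratinocyte proteins had a median of 310 FPKM, with 363 for 2310050C09Rik and 4.60 for Prr9, a proline-rich protein. The S100 entries had a median of 49.5 FPKM and spanned the widest range as a ratio, with 665 for S100a11, which binds calcium and annexin A1, and 0.161 for S100a5. The S100-fused-type entries had a median of 1.45 FPKM, with the filaggrin relative Hrnr (hornerin) the highest at 105 FPKM and Tchhl1 the lowest at 0.465 FPKM. The 7 further genes had a median of 2.90 FPKM and reached 14.6 FPKM for Gm4202. All members together held 1.39 to 2.37% of the FPKM of reference genes in a library. The 12 LCE entries stand for 17 symbols, since 4 of them join near-identical or neighbouring copies, and the division of reads among LCE copies is uncertain. In bulk tissue, fewer cornifying cells and less RNA per cell cannot be told apart for any of these values.

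**Figure D1:**
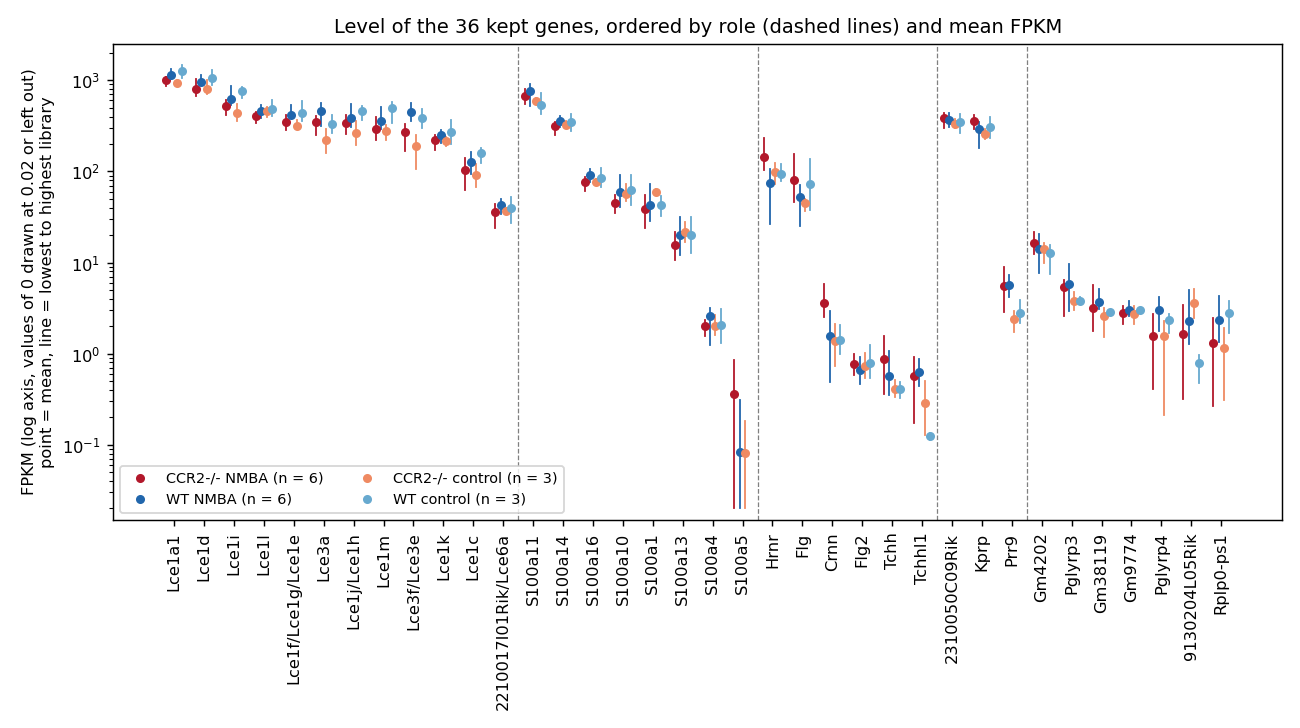
Mean FPKM of each tested member (log axis) by role group, for CCR2-/- NMBA, WT NMBA, CCR2-/- control and WT control libraries, with lines from the lowest to the highest library and values of 0 drawn at the foot or left out. LCE entries lie between 39.2 and 1080 FPKM on average, whereas S100-fused-type entries have a median of 1.45 FPKM with Hrnr at 105 FPKM.

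The first comparison asks how these genes differed between NMBA-treated and control WT mice. Genes of the outer envelope split by family: the 2 Lce3 entries were above control values on average and the 9 Lce1 entries below, and Tchhl1 and Prr9 were higher in all NMBA libraries than in any control. None of these differences passed the test. By limma with Benjamini-Hochberg adjustment over all 14765 genes tested, 0 of 36 members had an adjusted p under 0.05, where 0.088% of all genes were called higher and 0% lower. Before adjustment, at p under 0.05, 5 members were higher and 0 lower, beside 5.45% and 7.69% of all genes, and without WT control replicate 1 or 3 the 5 became 2. Log2 fold changes were above 0 for 52.8% and below 0 for 47.2% of members, beside 48.2% and 51.8% of all genes, with a median of 0.04 over the 36 members and -0.01 over all genes.

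Tchhl1, an S100-fused-type relative of trichohyalin, had 0.447, 0.605 and 0.868 FPKM (lowest, median and highest) in WT NMBA libraries, against 0.131, 0.135 and 0.113 FPKM in WT control libraries. The groups did not overlap, at values near the filter. No control library of either genotype reached 0.5 FPKM of Tchhl1. It therefore passed the filter only through NMBA libraries, which favours its non-overlap and its place among the higher members. Its log2 fold change, taken as all others on log2(FPKM + 1), which understates changes of low genes, was 0.52 (SE 0.14, adjusted p = 0.183), or 1.66 (adjusted p = 0.111) with a pseudocount of 0.1. Prr9 had 4.19, 5.63 and 7.21 FPKM (lowest, median and highest) in WT NMBA, against 3.84, 2.47 and 2.16 FPKM in WT control libraries, again without overlap (log2 fold change 0.82, SE 0.26, adjusted p = 0.230). In all, 4 members lay without overlap higher in WT NMBA and 0 lower, beside 2.7% and 3.76% of all genes. The other 2 were 9130204L05Rik (log2 fold change 0.78, adjusted p = 0.360) and Gm38119 (0.28, adjusted p = 0.651), neither of which has a role given here.

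Of the S100 entries, 6 of 8 were above 0 and none but S100a11 had an unadjusted p under 0.05. S100a11 had 518, 777 and 917 FPKM (lowest, median and highest) in WT NMBA, against 471, 718 and 430 FPKM in WT control libraries. These overlap, and the log2 fold change was 0.49 (SE 0.18, adjusted p = 0.273). S100a14 and S100a16, both epithelial S100 proteins, had log2 fold changes of 0.02 and 0.12 with adjusted p of 0.971 and 0.793. The number of S100 entries below 0 moved between 0 and 5 when WT control replicate 2 or 3 was left out, so no direction is given for them.

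The Lce3 entries had the higher values in WT NMBA. Lce3a had 316, 484 and 561 FPKM (lowest, median and highest) in WT NMBA, against 267, 420 and 295 FPKM in WT control libraries. Of the 6 NMBA libraries, 5 were above the highest control (log2 fold change 0.51, SE 0.21, adjusted p = 0.312). The joined entry of Lce3f and Lce3e had 358, 441 and 559 FPKM in WT NMBA, against 370, 489 and 297 FPKM in WT control libraries (log2 fold change 0.22, adjusted p = 0.781). With FPKM scaled to 7 squamous epithelial genes, which lowers the median of all genes by 0.23, 1 of the 2 Lce3 entries stayed above 0.

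The Lce1 entries had log2 fold changes of -0.47 to -0.03, all 9 below 0 with a median of -0.14, and without WT control replicate 2 the number below 0 was 5. Lce1m had 290, 334 and 504 FPKM (lowest, median and highest) in WT NMBA, against 571, 576 and 339 FPKM in WT control libraries. The groups overlap, since WT NMBA replicates 4 to 6 lay above WT control replicate 3 (log2 fold change -0.47, SE 0.23, adjusted p = 0.389). Lce1i (-0.29, adjusted p = 0.514) and Lce1c (-0.33, adjusted p = 0.622) came next. Filaggrin, Hrnr and Crnn, which mark the later steps of cornification, had log2 fold changes of -0.31, -0.42 and 0.06 with adjusted p of 0.816, 0.684 and 0.951. The value of Flg rests on WT control replicate 1 (138 FPKM, where the other controls had 37.2 and 44.3) and turned to 0.27 without it.

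The same comparison in CCR2-/- mice gave a different order of genes. Crnn was higher in every NMBA library than in any control, Lce3a and Prr9 had the next smallest p, and all 6 S100-fused-type entries were above 0. Again 0 of 36 members passed the adjusted threshold, where 0.0203% of all genes were called higher and 0% lower by limma with Benjamini-Hochberg adjustment. Before adjustment, at p under 0.05, 6 members were higher and 2 lower, beside 5.2% and 6.18% of all genes, and without CCR2-/- control replicate 1 these became 2 and 1. Tchh, among these higher members, reached 0.5 FPKM in no control but CCR2-/- control replicate 3 (0.511 FPKM), and Tchhl1 in none. Both thus passed the filter mainly through NMBA libraries. That favours their place above 0 among the S100-fused-type entries and that of Tchh among the higher members. Of the members 75% had a log2 fold change above 0 and 25% below, beside 49.3% and 50.7% of all genes, with a median of 0.15 over the members and -0.00 over all genes.

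Crnn, an S100-fused-type protein made in quantity by esophageal squamous epithelium, had 2.52, 3.23 and 5.80 FPKM (lowest, median and highest) in CCR2-/- NMBA, against 1.24, 0.741 and 2.12 FPKM in CCR2-/- control libraries. The groups did not overlap, which held for 1 member in the higher and 1 in the lower direction, beside 3.41% and 2.97% of all genes. The log2 fold change of Crnn was 0.96 (SE 0.26, adjusted p = 0.255). The S100-fused-type entries as a whole had a median of 0.45, with Flg at 0.71 (adjusted p = 0.510), Hrnr at 0.52 (0.574) and the inner root sheath protein Tchh at 0.37 (0.414), and 5 of 6 stayed above 0 under the squamous scaling, which lowers the median of all genes by 0.37 here.

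Flg had 45.8, 70.2 and 156 FPKM (lowest, median and highest) in CCR2-/- NMBA, against 36.6, 48.9 and 49.7 FPKM in CCR2-/- control libraries. Hrnr had 103, 120 and 234 FPKM in CCR2-/- NMBA, against 97.7, 72.7 and 123 FPKM in CCR2-/- control libraries. For Flg 1 NMBA library, replicate 4, lay within the range of the controls, and for Hrnr 3 did. The Flg entry joins 3 annotated genes of that name (chr3:93273523-93293686), and the pseudogene Rplp0-ps1 lies within its span.

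Prr9 had 2.88, 5.57 and 8.84 FPKM (lowest, median and highest) in CCR2-/- NMBA, against 1.73, 2.59 and 2.91 FPKM in CCR2-/- control libraries (log2 fold change 0.85, SE 0.26, adjusted p = 0.300). The size was close to that in WT, where it was 0.82, and the difference between the genotypes was 0.03 (SE 0.37, adjusted p = 0.990). Replicates 1 to 3 lay at 6.59 to 8.84 FPKM and replicates 4 to 6 at 2.88 to 4.54 FPKM in CCR2-/- NMBA. With NMBA replicates 1 to 3 alone the log2 fold change of Prr9 was 1.32 in CCR2-/- (adjusted p = 0.0114) and 1.02 in WT (adjusted p = 0.0276). That fit also called more of all genes than the main fit in both genotypes. No member passed with replicates 4 to 6 alone. Kprp, a keratinocyte proline-rich protein of the envelope, averaged 356 ± 44.8 FPKM in CCR2-/- NMBA (SD, n = 6) and 260 ± 34.3 FPKM in CCR2-/- control libraries (SD, n = 3), with an adjusted p of 0.423 by limma.

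Lce3a had 250, 369 and 406 FPKM (lowest, median and highest) in CCR2-/- NMBA, against 158, 219 and 289 FPKM in CCR2-/- control libraries. Of the NMBA libraries, 5 of 6 exceeded the highest control, and only replicate 4, the one richest in Pgc, did not (log2 fold change 0.69, SE 0.21, adjusted p = 0.296). The joined Lce3f and Lce3e entry had 165, 280 and 329 FPKM in CCR2-/- NMBA, against 107, 215 and 248 FPKM in CCR2-/- control libraries (0.55, SE 0.25, adjusted p = 0.417). Of the 12 LCE entries 9 were above 0, with a median of 0.12, but under the squamous scaling 10 were below 0 with a median of -0.38. The scaling genes were themselves higher under NMBA, with factors of 0.911 to 1.43 in CCR2-/- NMBA and 0.746 to 0.906 in CCR2-/- control libraries. The scaling is thus no neutral reference for this comparison, and the family's direction against control depends on the scale.

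Among the 9 members below 0 in CCR2-/- NMBA, 9130204L05Rik, S100a1 and S100a13 had the smallest p. S100a1, a calcium sensor known from heart and skeletal muscle, had 24.1, 36.7 and 55.7 FPKM (lowest, median and highest) in CCR2-/- NMBA, against 64.5, 56.1 and 55.8 FPKM in CCR2-/- control libraries. The groups did not overlap, by a margin of 55.7 against 55.8 (log2 fold change -0.64, SE 0.29, adjusted p = 0.415). The summed FPKM of 8 muscle genes, all 8 of the list, was 691 to 2817 in CCR2-/- NMBA and 1988 to 3463 in CCR2-/- control libraries, and its part in S100a1 was not tested. S100a13 starts head to head with S100a1 on the opposite strand and had -0.43 (adjusted p = 0.564), and whether reads were counted by strand is not given in the sources used here. 9130204L05Rik had 0.319, 1.67 and 3.39 FPKM in CCR2-/- NMBA, against 2.46, 5.13 and 3.23 FPKM in CCR2-/- control libraries (-0.89, SE 0.36, adjusted p = 0.388). With NMBA replicates 1 to 3 alone S100a1 stood at -0.96 (adjusted p = 0.0387), and under the squamous scaling S100a1 stood at -1.13 (adjusted p = 0.0478) and 9130204L05Rik at -1.20 (adjusted p = 0.0430). The squamous scaling shifted the median of all genes downward in this comparison and called far more of them than the main fit. The adjusted p under that scaling therefore do not set S100a1 or 9130204L05Rik apart from genes in general.

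**Figure D2:**
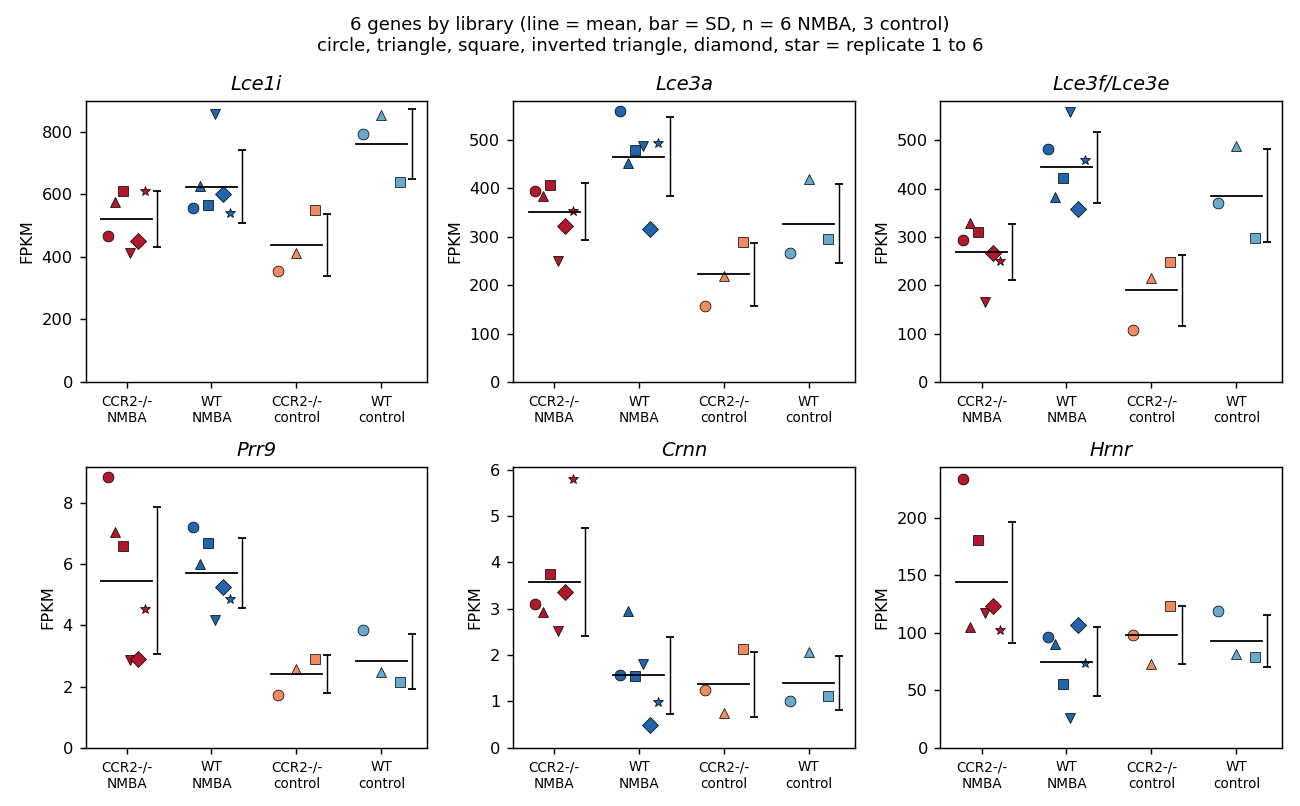
FPKM of Lce1i, Lce3a, the joined Lce3f and Lce3e entry, Prr9, Crnn and Hrnr in each library, by group, where symbols give the replicate, lines the group means and bars the SD. Crnn lies at 2.52 to 5.80 FPKM in CCR2-/- NMBA libraries and at 0.741 to 2.12 FPKM in CCR2-/- control libraries, and Prr9 at 4.19 to 7.21 FPKM in WT NMBA and 2.16 to 3.84 FPKM in WT control libraries.

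Under NMBA, most S100-fused-type genes had higher and all LCE genes lower mean log2 values in CCR2-/- than in WT mice, none of them past the adjusted threshold. Crnn and Hrnr had the smallest p among the higher members and the joined Lce3f and Lce3e entry among the lower. By limma with Benjamini-Hochberg adjustment, 0 of 36 members were called, where 0.0203% of all genes were called higher and 0.0271% lower. Before adjustment, at p under 0.05, 3 members were higher and 4 lower, beside 2.4% and 3.9% of all genes. The 4 became 1 without WT NMBA replicate 1 or CCR2-/- NMBA replicate 4, and 7 without WT NMBA replicate 5. The median was -0.19 over the members and 0.02 over all genes, and 25% of members were above and 75% below 0, beside 54.1% and 45.9% of all genes.

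Crnn had 2.52, 3.23 and 5.80 FPKM (lowest, median and highest) in CCR2-/- NMBA, against 0.490, 1.56 and 2.96 FPKM in WT NMBA libraries. Only the highest WT library, replicate 2, reached into the CCR2-/- range (log2 fold change 0.87, SE 0.22, adjusted p = 0.288). Hrnr had 103, 120 and 234 FPKM in CCR2-/- NMBA, against 26.2, 82.1 and 107 FPKM in WT NMBA libraries. WT NMBA replicate 5, at 107 FPKM, overlapped the 2 lowest CCR2-/- libraries, and the log2 fold change was 1.00 (SE 0.29, adjusted p = 0.486), or 0.73 without WT NMBA replicate 4. Of the 6 S100-fused-type entries 5 were above 0, with a median of 0.41, and their summed FPKM was 167 to 343 in CCR2-/- NMBA and 54.5 to 179 in WT NMBA libraries. S100a5, the third of the higher members, had 0.29, or 1.15 with a pseudocount of 0.1 (adjusted p = 0.730 and 0.729). It was at or near 0 in most libraries, with a highest value of 0.862 FPKM in CCR2-/- NMBA and 0.313 FPKM in WT NMBA. S100a5 reached 0.5 FPKM only in CCR2-/- NMBA libraries. It therefore passed the filter through the group in which it was higher, which favours its place in the count.

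The LCE entries lay on one side throughout. All 12 log2 fold changes were below 0, with a median of -0.26. All 12 stayed below 0 under the squamous scaling and without each library in turn, and 11 under quantile normalization. The LCE entries are related neighbours with an uncertain division of reads, and several peaked in the same library, WT NMBA replicate 4. The 12 are therefore not 12 separate results. The joined Lce3f and Lce3e entry had 165, 280 and 329 FPKM (lowest, median and highest) in CCR2-/- NMBA, against 358, 441 and 559 FPKM in WT NMBA libraries. These groups did not overlap, which held for 0 members higher and 1 lower, beside 0.122% and 0.203% of all genes, and its log2 fold change was -0.74 (SE 0.20, adjusted p = 0.409). Lce3a followed with -0.40 (SE 0.17, adjusted p = 0.730) and overlapping groups. The summed FPKM of the LCE entries was 3883 to 5408 in CCR2-/- NMBA and 5127 to 6988 in WT NMBA libraries, so the highest CCR2-/- libraries reached the lowest WT ones.

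Lce1d averaged 803 ± 138 FPKM in CCR2-/- NMBA and 949 ± 94.1 FPKM in WT NMBA libraries (SD, n = 6 each), with an adjusted p of 0.730 by limma. Lce1a1, the most abundant member, averaged 1002 ± 79.0 FPKM in CCR2-/- NMBA and 1143 ± 112 FPKM in WT NMBA libraries (SD, n = 6 each), also with an adjusted p of 0.730 by limma. Both differences are about the size of the spread between libraries. The remaining lower members at an unadjusted p under 0.05 were Pglyrp4, a bactericidal peptidoglycan recognition protein (-0.71, SE 0.28, adjusted p = 0.730), and S100a16 (-0.27, SE 0.12, adjusted p = 0.730). Pglyrp4 had 0.408, 1.51 and 2.71 FPKM (lowest, median and highest) in CCR2-/- NMBA, against 1.77, 3.15 and 4.20 FPKM in WT NMBA libraries, and these overlap. Its relative Pglyrp3 had -0.05 (adjusted p = 0.957).

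LCE values were below WT without NMBA as well, in libraries that the NMBA comparison does not share, though both come from 1 fit. In controls, 12 of 12 LCE entries were below 0 in CCR2-/- against WT, with a median of -0.51, and 11 of 12 with a median of -0.44 under the squamous scaling. Without WT control replicate 3 and CCR2-/- NMBA replicate 4, which are rich in Pgc, 12 of 12 were below 0 with a median of -0.60. The WT controls left there, replicates 1 and 2, had glandular sums of 4437 and 7579 FPKM. Those of CCR2-/- controls were 25927, 42390 and 29229 FPKM. That fit leaves the control groups unlike in glandular genes, so it is no check on glandular tissue. Without WT control replicate 2 alone, the number of LCE entries below 0 was 10. By limma with Benjamini-Hochberg adjustment, 0 of 36 members were called, where 0% of all genes were called higher and 0.00677% lower. Before adjustment, at p under 0.05, 1 member was higher and 9 were lower, beside 2.81% and 2.3% of all genes, and 8 of those 9 were LCE entries. Without CCR2-/- control replicate 1 the 9 became 5. Of the members 27.8% were above and 72.2% below 0, beside 49.6% and 50.4% of all genes. Members with groups that did not overlap numbered 2 higher and 6 lower, beside 4.47% and 4.74% of all genes, and all 6 lower ones were LCE entries. As under NMBA, the LCE entries are related neighbours and do not count as separate results.

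Lce1i had 355, 412 and 548 FPKM in CCR2-/- control libraries, against 791, 853 and 638 FPKM in WT control libraries. No CCR2-/- value reached the lowest WT value, and the log2 fold change was -0.81 (SE 0.21, adjusted p = 0.594). The joined Lce3f and Lce3e entry had 107, 215 and 248 FPKM in CCR2-/- control libraries, against 370, 489 and 297 FPKM in WT control libraries. This was the largest LCE difference, at -1.07 (SE 0.29, adjusted p = 0.623), and it stayed between -1.31 and -0.71 with any 1 library left out. The joined Lce1j and Lce1h entry (-0.82, SE 0.25, adjusted p = 0.796), Lce1m (-0.81, adjusted p = 0.801), Lce1c (-0.83, adjusted p = 0.869) and Lce1a1 (-0.44, adjusted p = 0.801) were the other entries without overlap.

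The LCE genes with small differences in controls were Lce1l, at -0.07, and the joined 2210017I01Rik and Lce6a entry, also at -0.07. Lce1d had -0.39 (adjusted p = 0.967). The summed FPKM of the 12 entries was 3784, 3898 and 5034 in CCR2-/- control and 6023, 7424 and 4986 in WT control libraries, and WT control replicate 3, with the lowest sum of its group, held 49787 FPKM of glandular genes. The part of glandular tissue in the LCE values was not tested.

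**Figure D3:**
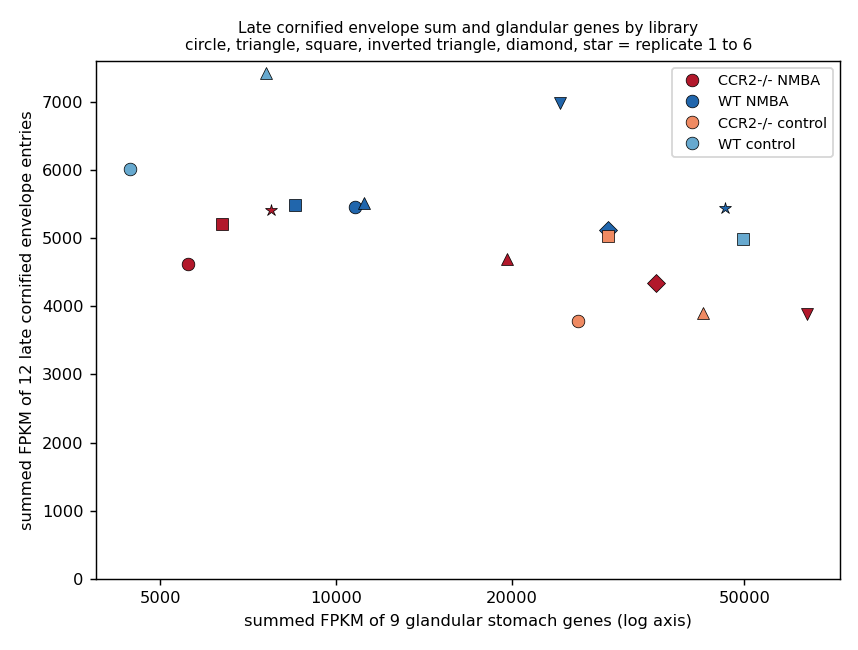
Summed FPKM of the 12 LCE entries (vertical axis) against summed FPKM of 9 glandular stomach genes (horizontal axis, log scale), 1 symbol per library. LCE sums reach 3883 to 5408 in CCR2-/- NMBA and 5127 to 6988 in WT NMBA libraries, while glandular sums of these groups overlap from 8513 to 46351.

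Of the 10 members above 0 in CCR2-/- controls, 9130204L05Rik and S100a1 were those whose groups did not overlap. 9130204L05Rik had 2.46, 5.13 and 3.23 FPKM in CCR2-/- control libraries, against 0.941, 0.474 and 0.957 FPKM in WT control libraries (log2 fold change 1.33, SE 0.41, adjusted p = 0.796). With a pseudocount of 0.1 that value of 9130204L05Rik was 2.05, and its NMBA response in CCR2-/- was -1.38 in place of -0.89. S100a1 had 64.5, 56.1 and 55.8 FPKM in CCR2-/- control libraries, against 32.6, 53.8 and 41.1 FPKM in WT control libraries (0.48, SE 0.33, adjusted p = 1). For S100a1 the gap between the groups was small, at 55.8 against 53.8 FPKM. Crnn and Hrnr, which had the smallest p of the higher members under NMBA, were at -0.03 and 0.06 in controls, with an adjusted p of 1 for each, and Tchhl1 was at 0.18 (adjusted p = 1).

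**Figure D4:**
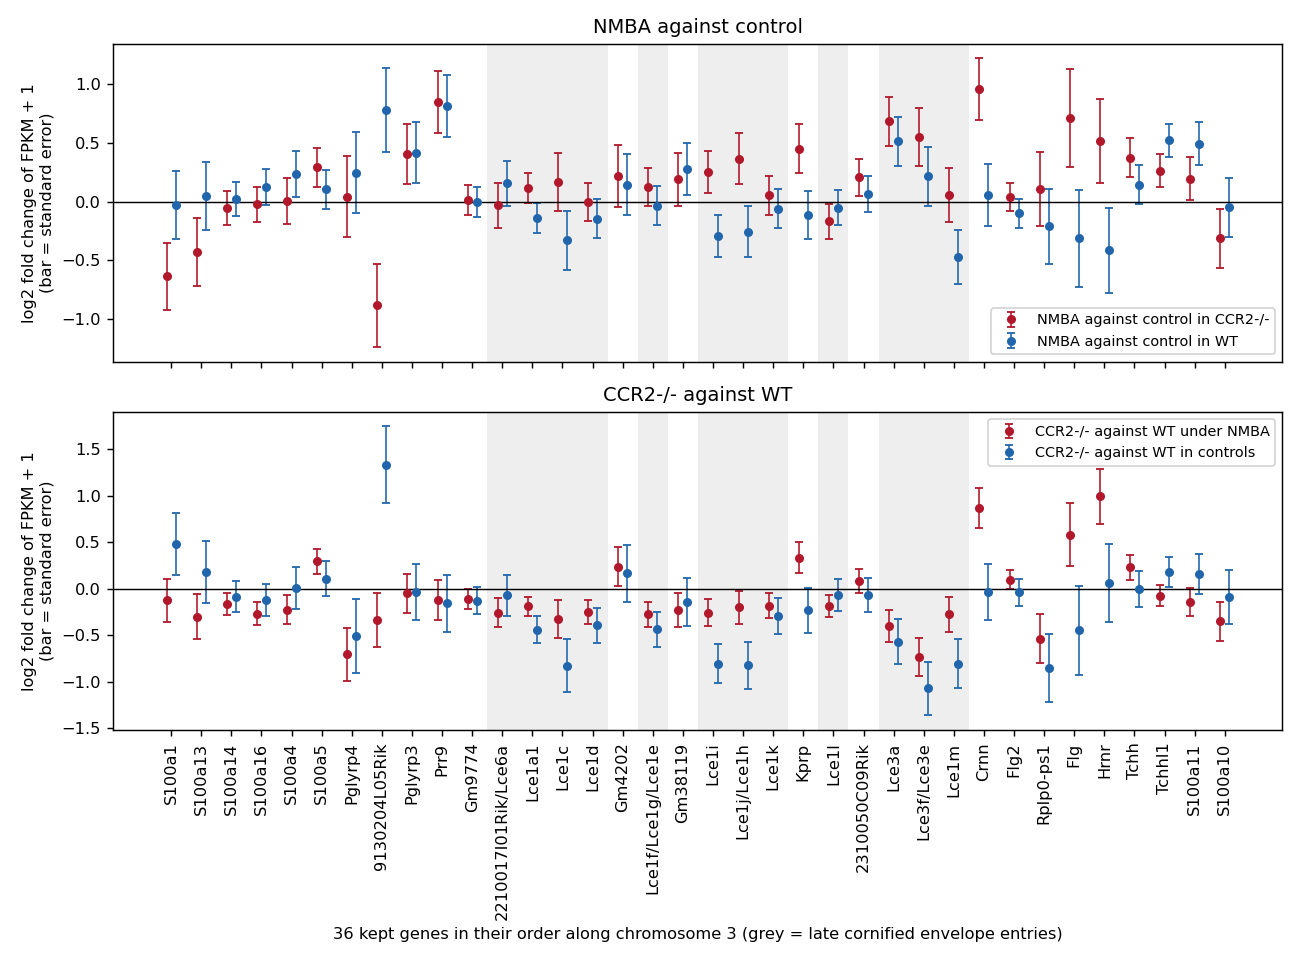
Log2 fold changes of the 36 tested members in order of position on chromosome 3, with lines for the SE. The top panel gives NMBA against control in CCR2-/- and in WT, and the bottom panel CCR2-/- against WT under NMBA and in controls, where all 12 LCE entries lie below 0 in both.

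Whether the response to NMBA differed between the genotypes was tested as the difference of the responses, CCR2-/- minus WT. No member passed: 0 of 36 had an adjusted p under 0.05 by limma with Benjamini-Hochberg adjustment, as had 0% of all genes in either direction, and at an unadjusted p under 0.05, 2 members were higher and 1 lower, beside 1.98% and 2.58% of all genes. The 2 became 5 without WT control replicate 3 and 0 without CCR2-/- control replicate 2, and the 1 became 3 without WT control replicate 2. Differences were above 0 for 61.1% and below 0 for 38.9% of members, beside 52.8% and 47.2% of all genes. The response of 9130204L05Rik was -0.89 in CCR2-/- and 0.78 in WT, a difference of -1.67 (SE 0.51, adjusted p = 0.893). The response of Crnn was 0.96 in CCR2-/- and 0.06 in WT, a difference of 0.90 (SE 0.37, adjusted p = 0.893). Lce1i had 0.25 in CCR2-/- and -0.29 in WT, a difference of 0.55 (SE 0.25, adjusted p = 0.893), and the joined Lce1j and Lce1h entry had a difference of 0.62 (SE 0.31, adjusted p = 0.893). The differences of Flg (1.03, SE 0.59), Hrnr (0.93, SE 0.51) and Kprp (0.57, SE 0.29) were positive with the same adjusted p, that of Flg falling to 0.45 without WT control replicate 1, and those of S100a1 (-0.61, SE 0.41) and Tchhl1 (-0.26, SE 0.20) negative. With a pseudocount of 0.1 the differences of Tchhl1 and 9130204L05Rik were -0.92 and -2.67. For Prr9 (0.03) and Lce3a (0.17, SE 0.30) the responses lay within 1 SE of each other.

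The balance between the LCE branches can be read within a library, where the scale between libraries cancels. The summed Lce3 entries came to 12.1, 16.0 and 18.01% of the summed Lce1 entries (lowest, median and highest) in CCR2-/- NMBA. In WT NMBA these were 15.2, 18.9 and 23.9%. The control libraries, in replicate order, had 7.63, 12.7 and 12.04% in CCR2-/- control and 11.9, 14.1 and 13.6% in WT control. All WT NMBA libraries were above all WT controls, and 4 of 6 CCR2-/- NMBA libraries, at 15.9% or more, were above all CCR2-/- controls, whereas CCR2-/- NMBA replicates 4 (12.1%) and 6 (12.7%) were within or at the level of the controls. Within each treatment the CCR2-/- and WT ranges overlap. These shares are given as a description with no test.

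**Figure D5:**
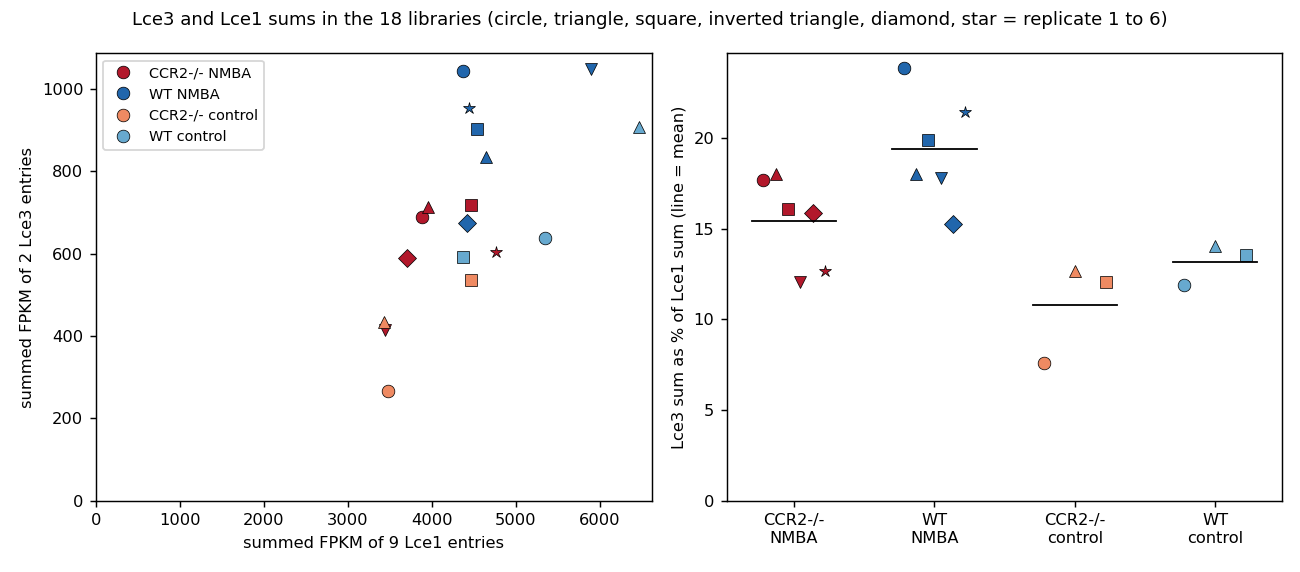
The left panel gives the summed FPKM of the 2 Lce3 entries against that of the 9 Lce1 entries, 1 symbol per library, and the right panel the Lce3 sum as a percentage of the Lce1 sum, by group with lines at the means. The WT NMBA libraries lie at 15.2 to 23.9% and the WT control libraries at 11.9 to 14.1%.

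Genes that work with the cluster but lie outside it were taken from a list of transglutaminases and envelope partners, differentiation keratins, filaggrin-processing enzymes, barrier lipid genes and regulators, of which 42 passed the filter. None passed the adjusted threshold of limma in any of the 5 comparisons. In CCR2-/- mice, 16 genes had higher values under NMBA and 1 a lower value at an unadjusted p under 0.05, beside 5.2% and 6.18% of all genes, with a median of 0.31 over the list and -0.00 over all genes, and under the squamous scaling these medians were -0.17 and -0.37. Of the 10 transglutaminases and envelope partners 6 were among the 16, of the 12 regulators 4, of the 8 barrier lipid genes 3, and of the 6 keratins 3, while the lower gene was the keratin Krt4 (-0.62, adjusted p = 0.417). Among them were Ovol1, a regulator of keratinocyte differentiation (log2 fold change 0.54, adjusted p = 0.296), and the corneodesmosome protein Cdsn (0.62, adjusted p = 0.296).

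In WT mice, 4 genes of the list had higher and 4 lower values under NMBA at an unadjusted p under 0.05, beside 5.45% and 7.69% of all genes, with a median of 0.08. The smallest p was that of Krt4, a suprabasal keratin of esophageal-type epithelium (-0.84, SE 0.28, adjusted p = 0.242). Next came the keratin Krt76 (-0.51, adjusted p = 0.254) and the citrulline-forming enzyme Padi1 (-0.35, adjusted p = 0.281). The other lower gene was envoplakin (Evpl, -0.44, adjusted p = 0.337), and 3 of the higher ones were the lipoxygenase Alox12b (0.47), the lysosomal protease Ctsd (0.34) and the transglutaminase Tgm5 (0.54), with adjusted p of 0.288 to 0.291. Krt4 averaged 3052 ± 796 FPKM in WT NMBA (SD, n = 6) and 5310 ± 49.9 FPKM in WT control libraries (SD, n = 3), without overlap. Krt13, the other listed suprabasal keratin of this type, had limma log2 fold changes of -0.03 in WT (adjusted p = 0.954) and -0.05 in CCR2-/- (adjusted p = 0.899). The sum of basal markers stood the other way from Krt4. Over 5 of 6 listed basal genes, all past the filter, the summed FPKM was 488 to 921 in CCR2-/- NMBA and 423 to 918 in WT NMBA. It was 319 to 351 in CCR2-/- control and 353 to 360 in WT control libraries. NMBA and control sums did not overlap in either genotype. Most of the sum was Krt5 on average, with 491 FPKM in WT NMBA and 235 FPKM in WT control libraries. In CCR2-/- the Krt5 means were 531 FPKM under NMBA and 225 FPKM in controls. Trp63, of the same list, had limma log2 fold changes of 0.09 in WT (adjusted p = 0.892) and 0.36 in CCR2-/- (adjusted p = 0.481). The part of basal cells in the members' values was not tested.

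Between genotypes the numbers past an unadjusted p of 0.05 were small. Under NMBA, 1 gene of 42 was higher and 1 lower in CCR2-/-, beside 2.4% and 3.9% of all genes, Krt76 (0.52, SE 0.14, adjusted p = 0.400) and the kallikrein Klk5 (-0.40, SE 0.12, adjusted p = 0.525). In controls, 1 was higher and 3 were lower, beside 2.81% and 2.3% of all genes, with the transcription factor Elf3 (1.17, adjusted p = 0.967) the higher and envoplakin (Evpl, -0.67, adjusted p = 0.801), Padi1 (-0.46, adjusted p = 0.801) and cornifelin (Cnfn, -0.80, adjusted p = 0.931) the lower ones. For the difference of the responses, where 1.98% of all genes were higher and 2.58% lower, the only such gene was Evpl (0.95, SE 0.28, adjusted p = 0.893).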

How the data were processed

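RNA sequencing of 18 mouse forestomach libraries was deposited by the authors as 1 table of FPKM per gene entry, normalized by gene length and mapped fragments. The submitters' notes name mm10, GRCm38 and DESeq2, and the aligner, the counting tool and its strand setting are not given in the sources used here. FPKM are not counts, so limma 3.58.1 (R 4.3.3) with a trend of spread on expression was fitted to log2(FPKM + 1) with group as the factor over all 18 libraries, and comparisons were taken as two-sided contrasts. Entries with a reference gene and 0.5 FPKM or more in 3 libraries or more (14765) were tested, with Benjamini-Hochberg adjustment over all of them and a threshold of 0.05. Depth is unknown, so no counting interval can be given, and relative depth read from the spacing of low values was 0.991 to 1.37 of WT control replicate 1. Nothing in the labels beyond replicate numbers says that libraries of a group are separate animals, so p-values measure the spread between these libraries.

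Named members are the 5 markers, any member called, the 3 with the highest mean FPKM in each role group and the 3 with the smallest p in each direction of each comparison, which gives 26. From the outer list, the 3 smallest p of a comparison are named, except for results that are not reported here. Tchh, Rplp0-ps1, Lce1l, the joined Lce6a entry and further genes of the outer list were added after their values were seen. The members, the lists and the comparisons were chosen with earlier results of these data known. The scaling to squamous genes (7 of 8 with an entry) was chosen after the data had been seen. Its factors were 0.847 to 1.25 in WT NMBA and 0.779 to 0.970 in WT control libraries. They were also higher under NMBA in CCR2-/-, so the scaling is not independent of treatment. The test was checked on simulated data. That check drew independent noise per gene and placed changes larger than most reported here in genes that were not low. It therefore does not cover correlated genes, low members or smaller changes. Tables and figures were made with Python 3.11.15, pandas 2.3.3 and matplotlib 3.10.9. Promoters are RefSeq sequences of GRCm38.p6. Other columns of per-sample values left unused numbered 0.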

Additional observations from a re-analysis of the deposited data

Results flagged for a closer look

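In groups of 6 libraries, a value was singled out where its gap to the nearest other library, divided by the range of the group, exceeded the critical value of Dixon's test for 6 values. Of 52 groups tested 7 met this, where chance gives about 1 in 20. WT NMBA replicate 4 was the highest of its group for 4 late cornified envelope entries, with 1138 FPKM of Lce1d (next 935), 855 FPKM of Lce1i (next 625), 547 FPKM of the joined Lce1j and Lce1h entry (next 395) and 504 FPKM of Lce1m (next 366). CCR2-/- NMBA replicate 6 had 5.80 FPKM of Crnn (next 3.75). WT NMBA replicate 1 had 5.16 FPKM of Gm38119 (next 3.69). CCR2-/- NMBA replicate 4 had the lowest value of Pglyrp3, 2.61 FPKM (next 5.30).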

How the results depend on the processing

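With any 1 library left out, 0 members were called in each of the 5 comparisons, and members at an unadjusted p under 0.05 numbered 2 to 6 higher and 0 to 2 lower for NMBA in WT, 2 to 8 and 0 to 2 in CCR2-/-, 2 to 4 and 1 to 7 for genotype under NMBA, 1 and 5 to 10 for genotype in controls, and 0 to 5 and 1 to 3 for the difference. Over 12 other alternatives (pseudocount, filter, scaling, groups in the fit, spread model, library weights, replicate block, replicate range and the 2 libraries rich in Pgc), 8 of 433 results of single genes passed the adjusted threshold of limma. With the replicate number as a block, 2 members passed in WT under NMBA (Tchhl1, 0.67, and Prr9, 1.16, with adjusted p of 0.0228 and 0.0139) and 1 in CCR2-/- (Prr9, 1.19, adjusted p = 0.0168); over all genes the block called 278 and 294, against 13 and 3 without it, and it changed no other count of members. Replicates 4 to 6 exist only in the NMBA groups. Under the block they enter NMBA against control only through the difference between the NMBA groups. The block therefore draws largely on the same libraries as the fit of NMBA replicates 1 to 3 alone. Libraries of the same number deviated together (r above 0.1) in 8 of 21 pairs, with r of -0.404 to 0.429. Libraries of different numbers were not correlated for comparison, so whether the numbers pair the libraries stays undecided. With NMBA replicates 1 to 3 alone, 1 member passed in WT (Prr9) and 2 in CCR2-/- (Prr9 and S100a1, with S100a1 at -0.96, adjusted p = 0.0387). No member passed with replicates 4 to 6 alone. With FPKM scaled to squamous genes, 4 members passed in CCR2-/- under NMBA (Lce1l, -0.67; S100a14, -0.56; S100a1, -1.13; 9130204L05Rik, -1.20), with all genes shifted by -0.37 and 3402 of them called. The shift was -0.23 in WT and -0.12 for the difference. Of all genes, library weights called 31 in WT and 138 in CCR2-/-, and replicates 1 to 3 alone 158 and 224. Among 37 pairs of a named gene and a comparison, reversals were confined to Crnn and Flg. Crnn in WT under NMBA was -0.21 with replicates 4 to 6 alone, -0.017 without the 2 libraries rich in Pgc and -0.13 under the squamous scaling, and -0.078 to 0.25 with 1 library left out. Crnn between control genotypes was 0.088 with library weights and -0.25 to 0.17 with 1 library left out. Flg with 1 library left out was -0.66 to 0.27 in WT under NMBA and -0.80 to 0.13 between control genotypes. The causes were not tested. Depth is unknown and limits most the members near the filter, such as Tchhl1, S100a5 and 9130204L05Rik.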
